A study of Mus musculus with 29 samples.

Results

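Genes of the heart muscle cell were followed through RNA of the mouse aortic arch. They were Myh6, Myl4, Myl7, Tnnt2, Tnni3, Actc1, Nppa, Ttn, Sln and Myom1. The 10 genes, out of 56748 in the count table, were chosen by their measured values in earlier analyses of the same samples, and their symbols were matched to the Ensembl identifiers of the table. Their values and fold changes by genotype, age and diet are therefore a description. Counts of members past the threshold used for all genes are given once for each comparison and support nothing, and among the members only the comparison of male with female mice, which played no part in the choice, is a test. The arch lies close to the heart, so that pieces of heart muscle may be carried over with it, which was not tested.

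The study asked how a defect of DNA repair and a restricted diet change the aorta. WT mice (Ercc1 +/+) and Ercc1Δ/− littermates, which carry 1 Ercc1 allele without function and 1 truncated allele with reduced function, were F1 hybrids of C57BL6J and FVB. They were fed ad libitum (AL) to 6 weeks or 22 weeks of age, or were put on dietary restriction (DR) from 7 weeks, with 10% less food at first and 30% less from 9 weeks on, and killed at 22 weeks. All mice were perfused with buffer through the left ventricle, and 1 arch gave 1 sample. There were 5 WT and 5 Ercc1Δ/− mice at 6 weeks on AL, 4 WT and 4 Ercc1Δ/− mice at 22 weeks on AL, and 5 WT and 5 Ercc1Δ/− mice at 22 weeks on DR. Both sexes were present in each group. A further WT sample of 22 weeks on AL, 003, had 400410 counts and was left out. The whole body lacked normal Ercc1 function in these mice, so no comparison separates the aorta from the heart or the rest of the animal.

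Counts on genes totalled 921167 to 9616382 per sample. The Ercc1Δ/− samples of 22 weeks were shallower, with 1294980 to 3855444 counts on AL and 921167 to 2572523 on DR, than the WT samples of the same age, with 3903589 to 9616382 on AL and 2660422 to 6124471 on DR. Values below are normalized counts, that is counts scaled to the mean library size after TMM correction. The tissue label was checked on 12 smooth muscle genes, all of which had enough counts to be tested, with Myh11, the smooth muscle myosin of artery walls, between 19421 and 63742 normalized counts in each sample. Ercc1, the targeted gene, ran from 52.2 to 136 normalized counts in the 14 WT samples and from 28.2 to 78.7 in the 14 Ercc1Δ/− samples, so that the ranges overlapped over all ages, while on either diet at 22 weeks WT mice (94.2 or more) lay above Ercc1Δ/− mice (78.7 or less). Of 10 members, 7 had more than 10 counts in more than 10 samples and entered the fits, whereas Ttn, Sln and Nppa did not.

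As background, the heart muscle cell contracts by sliding thick filaments of myosin along thin filaments of actin within a repeating unit, the sarcomere. Myh6 encodes the main myosin heavy chain of the adult mouse heart, and Myl4 and Myl7 encode its atrial light chains. Tnnt2 and Tnni3 encode the cardiac troponins T and I, which make the thin filament of Actc1, the cardiac actin, respond to calcium. The giant protein titin (Ttn) spans the sarcomere, and myomesin 1 (Myom1) ties thick filaments together at its middle, the M-band. Sln encodes sarcolipin, a small inhibitor of the calcium pump in the atria, and Nppa encodes atrial natriuretic peptide, the hormone of the atria.

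The members were protein-coding genes on 8 chromosomes of GRCm39 in the GENCODE annotation. Myh6 (ENSMUSG00000040752) spanned chr14:55179367-55205887 (minus strand), Tnnt2 (ENSMUSG00000026414) spanned chr1:135763738-135780315 (plus strand), and Myom1 (ENSMUSG00000024049) spanned chr17:71309628-71434802 (plus strand). Actc1 and Ttn shared chromosome 2, at chr2:113876266-113884043 and chr2:76534136-76812891, both on the minus strand. Myl4 and Myl7 shared chromosome 11, at chr11:104440903-104486603 (plus strand) and chr11:5845449-5848792 (minus strand). Tnni3 lay at chr7:4521300-4527228 (minus strand), Nppa at chr4:148085091-148086583 (plus strand) and Sln at chr9:53742537-53761846 (plus strand).

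The promoters of 9 members, all but Sln, were found in a RefSeq table built on GRCm38.p6 and matched exactly to GRCm39, and the 250 bases before the first listed start were searched on both strands for short motifs of muscle genes. They are shown so that the start regions of the genes described next can be read beside their values. The CArG box, the site of serum response factor, was found in 3 of 9 member promoters and in 1.4% of 27025 promoters of that length. The M-CAT core CATTCC, the site of TEAD factors, was found in 3 of 9 and in 12.6% of all. A MEF2 motif stood in 1 of 9 and in 3.01% of all. The GATA motif AGATAA stood in 2 of 9 and in 10.3% of all, and TATAAA in 1 of 9 and in 13% of all. In the stretches printed here, read 5′ to 3′ along the gene, capitals mark the motif and the coordinates are those of GRCm39.
Myom1, CArG box, chr17:71326443-71326472 (plus strand): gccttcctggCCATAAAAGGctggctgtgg
Actc1, CArG box, chr2:113883384-113883413 (minus strand): gctaaggcgaCCAAATAAGGcaaggtggca
Myl7, CArG box, chr11:5848824-5848853 (minus strand): ccattcctctCCTTATTTGGgcctctgggt
Myl7, M-CAT core, chr11:5848835-5848864 (minus strand): agcccaatcatcCATTCCtctccttatttg
Tnnt2, M-CAT core, chr1:135764033-135764062 (plus strand): tctcctgctgcaCATTCCtccctccgcggg
Myh6, M-CAT core, chr14:55204253-55204282 (minus strand, motif on the other strand): ctttggggaggaGGAATGtgcccaaggact
Ttn, MEF2 motif, chr2:76813038-76813067 (minus strand): ttctgaaaggCTAAATTTAGcactgccaat
The windows of Myl7 overlap. For Myh6, Tnnt2, Actc1, Myl7 and Myom1 the RefSeq start lies inside the GENCODE gene span given above, so that their searched bases lie upstream of the RefSeq start and not always upstream of the span. A match of letters is a description and not a measured binding site.

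**Figure D1:**
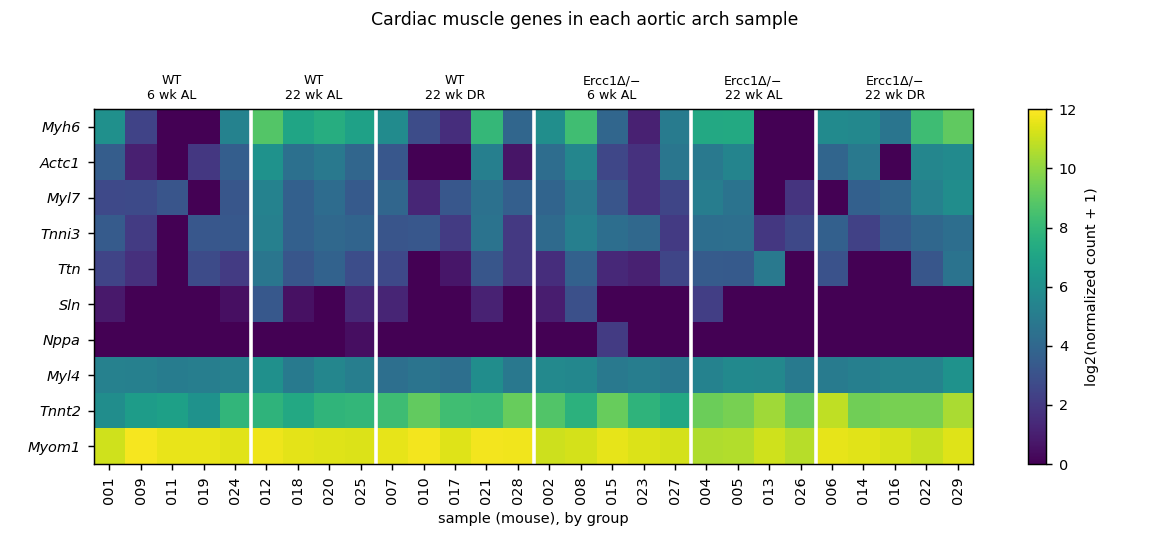
Colour shows log2(normalized count + 1) of each member (rows) in each of the 28 samples (columns, grouped by genotype, age and diet). Myom1 is bright in every column, Tnnt2 brightens toward the right, Myl4 is even, and the rows from Myh6 to Sln light up in single columns of several groups.

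Myom1 was abundant in each of the 28 samples, between 1505 and 3654 normalized counts and never under 670 raw counts. Per kilobase of annotated exon it had the highest median of the members, 169.8 normalized counts, followed by Tnnt2 with 35.1, Myl4 with 5.6, Myh6 with 4.96, Tnni3 with 4.32, Myl7 with 4.21, Actc1 with 2.17 and Ttn with 0.0427. Myom1 stood above the other 9 members in 26 of 28 samples, and Tnnt2 in the other 2. The study describes its counts as taken over the whole gene body, which would include introns. Per kilobase of gene span the medians were 21.8 for Myom1, 18.9 for Tnnt2, 3.15 for Myl7 and 1.87 for Myh6, and Myom1 was highest in 15 samples and Tnnt2 in 13. Myl12a, a myosin light chain gene on the other strand, overlaps Myom1 and had 6524 raw counts over the 28 samples beside 75860 of Myom1, and Dnaaf3 on the same strand overlaps Tnni3.

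Myh6, the main myosin of the heart, varied widely between mice of 1 group. WT mice of 6 weeks had 63.4 (sample 001), 4.36 (009), 0 (011), 0 (019) and 39.4 (024) normalized counts. WT mice of 22 weeks on AL had 435 (012), 131 (018), 179 (020) and 115 (025), and those on DR had 54.1 (007), 5.8 (010), 1.95 (017), 253 (021) and 14.6 (028). Every WT sample of 22 weeks on AL thus lay above every WT sample of 6 weeks, while the DR samples ran across both.

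In Ercc1Δ/− mice Myh6 stood at 59.5 (002), 317 (008), 14.6 (015), 1.12 (023) and 31.3 (027) at 6 weeks. At 22 weeks on AL it stood at 149.7 (004), 155 (005), 0 (013) and 0 (026), and on DR at 51.8 (006), 47.2 (014), 24.0 (016), 309 (022) and 539 (029). The 4 samples without a Myh6 count had 955589 to 1433979 counts in total, where a count of 0 allows up to 7.46 to 12.0 normalized counts (3 counts, counting error only). In Ercc1Δ/− mice of 22 weeks on AL, the limits of samples 013 and 026, 8.37 and 7.46, lay below the values of samples 004 and 005. Samples 013 and 026 were the males and the shallowest of that group, and 004 and 005 the females. Sex, depth and other differences between these mice cannot be told apart here. The mean of Myh6 was 21.4 ± 28.7 (SD, n = 5) in WT at 6 weeks, 215 ± 149 (n = 4) in WT at 22 weeks on AL, 65.9 ± 106.6 (n = 5) in WT on DR, 84.8 ± 132 (n = 5) in Ercc1Δ/− at 6 weeks, 76.3 ± 88.1 (n = 4) in Ercc1Δ/− at 22 weeks on AL and 194 ± 225 (n = 5) in Ercc1Δ/− on DR, so that the SD was above the mean in all groups but 1.

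Actc1, Myl7 and Tnni3 followed Myh6 from sample to sample. Over the 28 samples Pearson's r with Myh6, on log2(normalized count + 1), was 0.89 for Actc1, 0.75 for Myl7 and 0.71 for Tnni3 (Spearman's rho 0.91, 0.83 and 0.75). After centring each group on its mean, r was 0.89, 0.72 and 0.67, and without the 2 samples farthest from the Myh6 median it was 0.86, 0.71 and 0.68. These are descriptions across samples that differ in depth and share the scaling, and no p is attached.

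Sample 012, a WT mouse of 22 weeks on AL, held the highest Myh6 of its group at 435 and also the highest Actc1 (68.8), Myl7 (38.8) and Tnni3 (36.8). In WT on DR, sample 021 led in the same way with Myh6 at 253, Actc1 at 34.8, Myl7 at 21.6 and Tnni3 at 22.8. Among Ercc1Δ/− mice of 6 weeks, sample 008 led with Myh6 at 317, Actc1 at 44.7, Myl7 at 27.9 and Tnni3 at 35.4. At the other end, samples 013 and 026 had 0 Myh6, 0 Actc1 and at most 2.49 Myl7. Actc1 was at 0 in 6 samples that held 9223 to 44893 raw counts of Acta2, the smooth muscle actin, whose sequence is close to that of Actc1.

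Ttn, at 0 to 26 raw counts per sample, and Sln, at 0 to 9, were too low to test. Sln was above 0 in 10 of 28 samples, with its highest counts in samples 012 and 008, 9 and 7 raw counts. Ttn had its highest raw count, 26, in sample 012, and its highest normalized count, 27.9, in sample 013, an Ercc1Δ/− mouse without Myh6. That sample held skeletal muscle RNA, with Myh4, the myosin of fast skeletal fibres, at 421 normalized counts against at most 0.668 in the other 27, and a summed level of the 22 listed skeletal muscle genes of 1230.1 against 138 to 762 elsewhere.

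Nppa was almost absent, with 3 raw counts in all: 2 in sample 015, an Ercc1Δ/− mouse of 6 weeks, and 1 in sample 025, a WT mouse of 22 weeks on AL. Several ventricular genes were low as well. Myl2, the ventricular regulatory light chain, had 2 raw counts over the 28 samples, Nppb, the hormone of the ventricles under load, had 1. Bmp10, a factor of the right atrium, had 0. Myl3, the ventricular essential light chain, had 23 and Mybpc3, cardiac myosin binding protein C, had 103. Myh7, the slow myosin of heart and skeletal fibres, had 120, and Tnnc1, the troponin C of the same tissues, had 244 and was above 0 in each sample, beside 3055 for Myh6, 399 for Myl7 and 363 for Tnni3.

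Myl4 was the most even of the low members. It ran from 20.0 to 68.6 normalized counts, and its mean was 35.5 ± 2.33 (n = 5) in WT at 6 weeks, where Myh6 ran from 0 to 63.4 in the same samples. Samples without a Myh6 count had 32.1 (011), 34.2 (019), 47.4 (013) and 29.9 (026) normalized counts of Myl4. Its r with Myh6 was 0.50 over the 28 samples, lower than those of Actc1, Myl7 and Tnni3. The Cdc27 gene overlaps Myl4 on the other strand, and the strand setting of the counting was not given in the sources used here.

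Tnnt2 did not follow Myh6. Its r with Myh6 was 0.16 (rho 0.11) over the 28 samples and -0.06 after centring on group means. Sample 013, an Ercc1Δ/− mouse with 0 Myh6, had 1261 normalized counts of Tnnt2, while sample 012, a WT mouse with Myh6 at 435, had 223. These samples differ in genotype as well, and sample 013 held skeletal muscle RNA. Per exon length the ratio of Tnnt2 to Myh6 ran from 0.573 to 45.7 over the 19 samples with at least 10 Myh6 counts.

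The mean of Tnnt2 was higher in Ercc1Δ/− than in WT mice at either age and on either diet, which is a description only. WT mice of 6 weeks had 57.4 (001), 99.3 (009), 112 (011), 68.5 (019) and 241 (024) normalized counts of Tnnt2. WT mice of 22 weeks had 223 (012), 152 (018), 227 (020) and 249 (025) on AL and 309 (007), 546 (010), 317 (017), 296 (021) and 597 (028) on DR. All 5 WT samples on DR were above all 4 on AL.

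Ercc1Δ/− mice had 424 (002), 207 (008), 598 (015), 226 (023) and 149 (027) normalized counts of Tnnt2 at 6 weeks. At 22 weeks they had 635 (004), 754 (005), 1261 (013) and 609 (026) on AL, and 1837 (006), 673 (014), 741 (016), 739 (022) and 1402 (029) on DR. The groups of 22 weeks did not overlap between genotypes on either diet, while those of 6 weeks did. How many of all tested genes separated in this way was not counted, here or for diet in WT, so nothing is read from the separation.

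**Figure D2:**
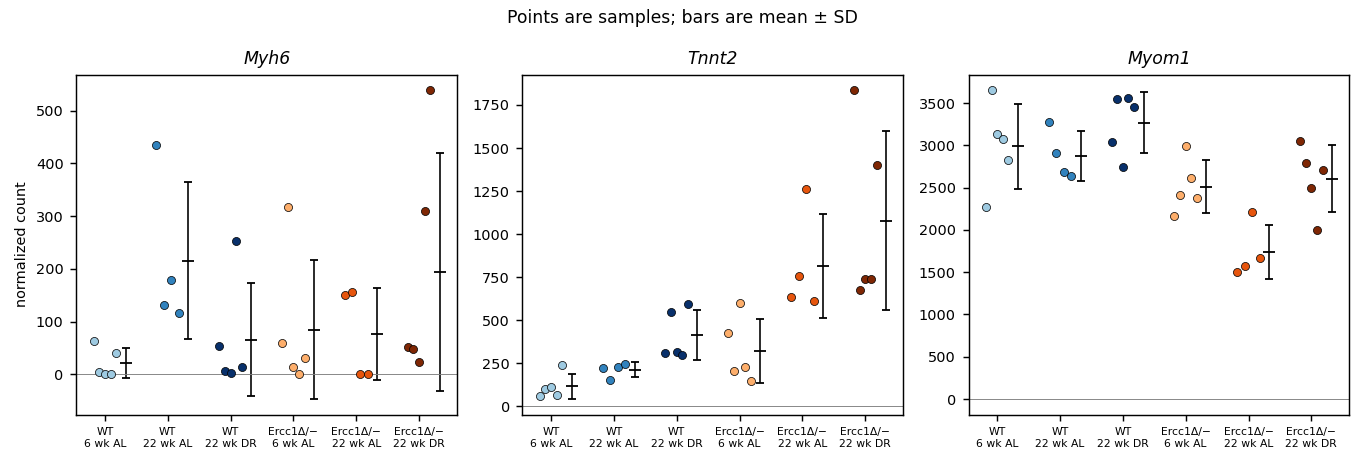
Normalized counts (y axes, 1 scale per gene) of Myh6, Tnnt2 and Myom1 by group (x axes), with a point for each sample and a bar for the mean ± SD (n = 4 or 5). Myh6 scatters from 0 to 539 within and between groups, Tnnt2 lies between 609 and 1837 in the Ercc1Δ/− groups of 22 weeks, and Myom1 is lowest in Ercc1Δ/− mice of 22 weeks on AL.

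In the fit with group and sex, the log2 fold change of Tnnt2 between Ercc1Δ/− and WT was 1.32 ± 0.47 (SE) at 6 weeks, 1.96 ± 0.49 at 22 weeks on AL and 1.37 ± 0.25 at 22 weeks on DR. At 22 weeks on AL it was 1.65 without sample 013 and 1.80 without sample 018, and at 6 weeks it was 2.09 without sample 024. With the mean level of Myh6, Myl7, Actc1 and Tnni3 as a further term, a choice made after the values were seen, the log2 fold change was 1.94 at 22 weeks on AL and 1.37 on DR.

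For age and diet the log2 fold change of Tnnt2 was 0.71 ± 0.49 from 6 to 22 weeks in WT, which became 1.44 without sample 024, and 1.36 ± 0.45 in Ercc1Δ/− mice. On DR it was 1.04 ± 0.27 in WT and 0.30 ± 0.26 in Ercc1Δ/− mice. The genotype by age term was 0.65 ± 0.68 and the genotype by diet term -0.74 ± 0.37.

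Markers of other tissues were summed in the same groups. A gene was called at an edgeR adjusted p of at most 0.05 and a change of at least 1.2-fold. The summed level of 6 brown fat genes was 499 to 1017 normalized counts in WT and 946 to 5690.4 in Ercc1Δ/− mice of 22 weeks on AL, with 3 of 5 tested genes called higher. The 5 mesothelium genes summed to 41.7 to 579 in WT and 550 to 914 in Ercc1Δ/− mice, with 0 of 4 tested called. The 5 macrophage genes summed to 443 to 646 in WT and 817 to 1579 in Ercc1Δ/− mice, with 4 of 5 called higher. The 7 endothelium genes summed to 2864 to 4182 in WT and 2341 to 3945 in Ercc1Δ/− mice, with 1 of 7 called higher. Of fibroblast genes 2 of 6 and of tested skeletal muscle genes 2 of 5 were called lower. No tested gene of white fat, red blood cells or Schwann cells was called. Of all tested genes 5.42% were called higher and 6.07% lower. On DR, 3 of 5 tested brown fat genes, 2 of 5 macrophage genes and 4 of 7 endothelium genes were called higher and 0 of 4 mesothelium genes were called. The 7 endothelium genes summed to 1580 to 3338 in WT and 3072 to 5179 in Ercc1Δ/− mice. Of fibroblast genes 1 of 6 was called higher and 2 of 6 lower. No tested skeletal muscle, white fat, red blood cell or Schwann cell gene was called. Of all tested genes 5.89% were called higher and 7.02% lower. The part of these tissues in the Tnnt2 values was not tested. In whole tissue fewer cells of a type and less RNA per cell cannot be told apart.

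The fold changes of Myom1 by genotype were opposite in sign to those of Tnnt2. WT mice had 2272 (001), 3654 (009), 3132 (011), 3076 (019) and 2821 (024) normalized counts of Myom1 at 6 weeks. At 22 weeks they had 3281 (012), 2906 (018), 2686 (020) and 2634 (025) on AL and 3033 (007), 3546 (010), 2744 (017), 3557 (021) and 3456 (028) on DR. The 3 WT groups overlapped throughout.

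Ercc1Δ/− mice of 6 weeks had 2162 (002), 2414 (008), 2995 (015), 2610.4 (023) and 2380.3 (027) normalized counts of Myom1. At 22 weeks the values were 1505 (004), 1574 (005), 2215 (013) and 1667 (026) on AL and 3049 (006), 2786 (014), 2494 (016), 2004 (022) and 2703 (029) on DR. The 4 AL samples lay below all WT samples of 22 weeks, and how many of all tested genes did so was not counted. On DR 3 of 5 Ercc1Δ/− samples, 016, 022 and 029, lay below all 5 WT samples on DR and the other 2 lay within their range.

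The log2 fold change of Myom1 between Ercc1Δ/− and WT was -0.24 ± 0.12 at 6 weeks, -0.71 ± 0.14 at 22 weeks on AL and -0.33 ± 0.11 at 22 weeks on DR. From 6 to 22 weeks it was -0.06 ± 0.13 in WT and -0.54 ± 0.13 in Ercc1Δ/− mice. DR against AL gave 0.20 ± 0.11 in WT and 0.58 ± 0.11 in Ercc1Δ/− mice. The genotype by age term was -0.47 ± 0.18 and the genotype by diet term 0.38 ± 0.16.

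The age difference of Ercc1Δ/− mice was -0.48 without sample 004, and the genotype difference on DR was -0.25 without sample 021. With the level of Myh6, Myl7, Actc1 and Tnni3 as a further term, the genotype difference was -0.88 on AL and -0.31 on DR.

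Myom1 was compared in the same samples with Myh6, Actc1, Myl7 and Tnni3, taken as markers of heart muscle that may have been carried over. Its r with Myh6 was -0.11 (rho -0.17) over the 28 samples, -0.38 after centring on group means and -0.36 without the 2 samples farthest from the Myh6 median. With Actc1 r was -0.20, with Myl7 -0.17 and with Tnni3 -0.18. Over the 19 samples with at least 10 Myh6 counts, the ratio of Myom1 to Myh6 per exon length had a median of 14.2 and ran from 3.12 in sample 029 to 147 in sample 028, a 47.2-fold range. The same ratio per gene span ran from 1.06 to 50.2 and stayed above 1 in all 19.

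The 4 samples without Myh6 counts had 3132 (011), 3076 (019), 2215 (013) and 1667 (026) normalized counts of Myom1. Within each of their groups these values lay between other samples or at the top. Samples without Myh6 were thus not the lowest in Myom1 of their groups. Sample 013, at the top of its group, also held the skeletal muscle RNA described above, whose part in its Myom1 value was not tested.

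**Figure D3:**
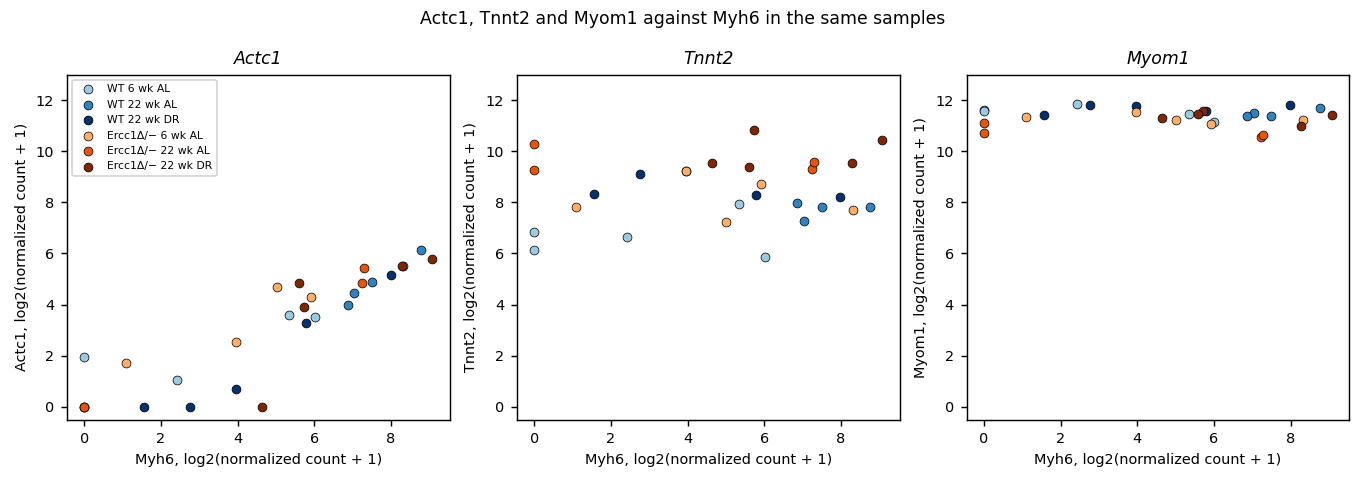
Log2(normalized count + 1) of Actc1, Tnnt2 and Myom1 (y axes) against that of Myh6 (x axes), with a point for each of the 28 samples coloured by group. Actc1 climbs with Myh6 (r 0.89), Tnnt2 shows little relation to Myh6 (r 0.16), and Myom1 stays level (r -0.11).

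Smooth muscle genes were read in the same comparisons. The 12 listed smooth muscle genes summed to 139776 to 164729 normalized counts in WT and 74465 to 113094 in Ercc1Δ/− mice of 22 weeks on AL, with 10 of 12 called lower. On DR they summed to 143019 to 185037 in WT and 102156 to 111782 in Ercc1Δ/− mice, with 11 of 12 called lower. For age in Ercc1Δ/− mice 2 of 12 were called lower. For DR against AL in Ercc1Δ/− mice 1 of 12 was called higher, and the summed ranges overlapped. The part of smooth muscle in the Myom1 values was not tested.

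The tested genes outside the 10 members with the pattern most like that of Myom1, by Spearman's rho over the 28 samples, were Mcam (0.87), Nexn (0.87), Pgm5 (0.84), Map1b (0.84), Pdlim3 (0.84), Capn2 (0.84), Gm7694 (0.84), Fermt2 (0.82), Dtna (0.82) and Tpm1 (0.81). Centred on group means, 4 of these 10 stayed in the top 10. For the mean log2 level of the other 9 members the most alike were Rai14 (0.67), Zcchc18 (0.67), Adprm (0.63), Capn5 (0.63), L1cam (0.62), Nrarp (0.62), Ppm1f (0.62), Cracr2b (0.61), Scyl3 (0.60) and Gm49331 (0.60), of which 1 stayed after centring. For Tnnt2 alone, looked up after its values were seen, Celf4 (0.87), Maff (0.86), Cdc42bpg (0.86) and Corin (0.85) came first, and 1 of the 10 most alike stayed after centring.

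The other members had wide errors between groups. Myh6 gave a log2 fold change of 3.11 ± 1.09 from 6 to 22 weeks in WT and -0.20 ± 1.06 in Ercc1Δ/− mice. Between genotypes it gave 1.35 ± 1.12 at 6 weeks, -1.96 ± 1.17 at 22 weeks on AL and 1.97 ± 1.09 on DR. DR against AL gave -2.14 ± 1.11 in WT and 1.51 ± 1.21 in Ercc1Δ/− mice. Without sample 008 the value at 6 weeks was -0.10 and the age value of Ercc1Δ/− mice was 1.59, and the latter was also above 0 without sample 013 (0.06) or 026 (0.08), so that no direction is read from either.

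Actc1 gave 2.28 ± 0.89 from 6 to 22 weeks in WT. Myl7 gave 1.78 ± 0.71 there and Tnni3 1.43 ± 0.53. For Myh6, Actc1, Myl7 and Tnni3, 4 of the 7 tested members, every WT sample of 22 weeks on AL lay above every WT sample of 6 weeks, which held for 1.75% of all tested genes. Nothing is read from this, since these 4 genes were chosen by their values and varied together. For Tnni3 the 0 counts of sample 011, of 6 weeks, allow up to 12.05 normalized counts. That limit is above the 11.97 of sample 018, of 22 weeks. With the level of these 4 genes as a term, which removes their shared part by construction, the log2 fold change was 0.04 for Myh6 and 0.01 for Actc1. Myl4 gave 0.20 ± 0.24 in this comparison and between -0.55 and 0.63 in the 7.

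**Figure D4:**
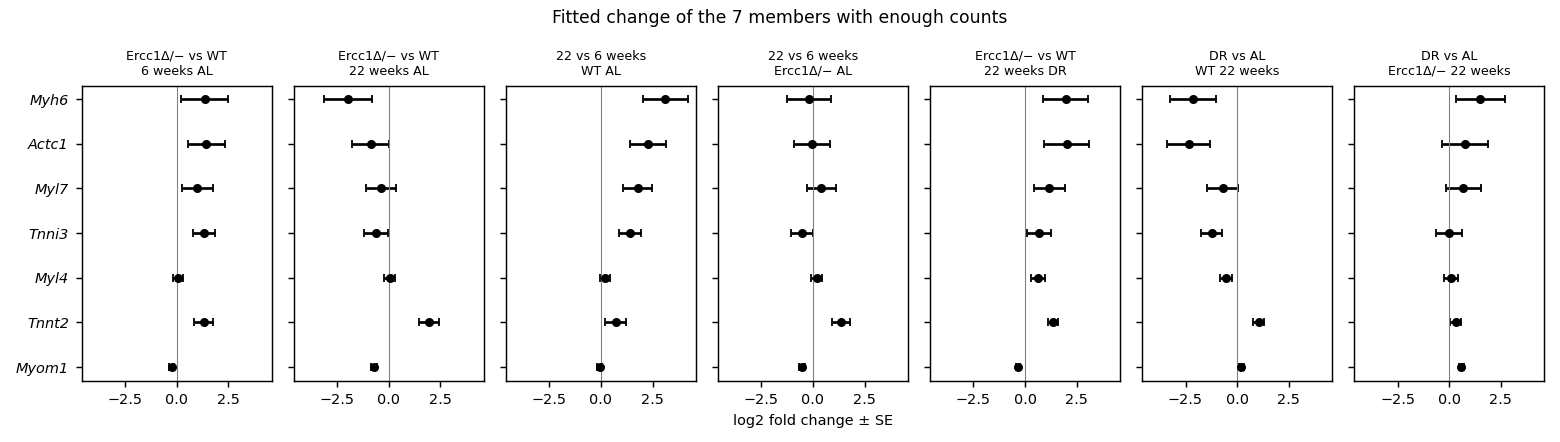
Log2 fold change ± SE (x axes) of the 7 members that entered the fits (y axis) in 7 comparisons (panels). Errors of Myh6, Actc1, Myl7 and Tnni3 are wide (SE 0.51 to 1.21), Tnnt2 is to the right of 0 in all panels, and Myom1 has the narrowest errors.

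The counts of members called are given beside the share of all 12353 tested genes called in the same direction, from which nothing is read, since these comparisons were used to choose the members. Of 7 members, 1 was called higher and 1 lower between genotypes at 22 weeks on AL (all genes 5.42% and 6.07%), and likewise on DR (5.89% and 7.02%). At 6 weeks edgeR called 0 of 7 (all genes 0.583% higher and 1.15% lower), with 2 at an unadjusted p under 0.05 and 1 called by DESeq2. From 6 to 22 weeks it called 0 of 7 in WT (0.089% higher, 0.13% lower), with 4 at an unadjusted p under 0.05 and 0 by DESeq2, and 1 of 7, lower, in Ercc1Δ/− mice (1.99% higher, 2.53% lower). On DR it called 0 of 7 in WT (0.324% higher, 0.842% lower), with 3 at an unadjusted p under 0.05 and 1 by DESeq2, and 1 of 7, higher, in Ercc1Δ/− mice (0.696% higher, 1.03% lower). In fits without 1 sample, Tnnt2 was called between genotypes of 22 weeks in 6 of 8 on AL and 10 of 10 on DR. Myom1 was called there in 8 of 8 and 4 of 10. In Ercc1Δ/− mice Myom1 was called in 6 of 9 such fits for age and 9 of 9 for diet.

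No difference between the sexes was detectable in the 7 members. The log2 fold change of male against female mice over the 28 samples, with group in the fit, ran from -1.07 ± 0.71 for Myh6 to 0.39 ± 0.25 for Tnnt2, and the edgeR adjusted p-values ran from 0.763 to 0.996. EdgeR called 0 of 7, with 0 at an unadjusted p under 0.05 and 0 by DESeq2, where 0.089% of all genes were called higher in males and 0.089% lower.

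Another 74 genes of the heart muscle cell were listed, of which 33 had enough counts. This list too was drawn up with earlier results of these samples known, so that its p-values, adjusted over all tested genes, are not independent evidence. None of the 9 listed thick and thin filament genes did, and the highest raw count of Myl2, Myl3, Myh7, Mybpc3 and Tnnc1 in any sample was 20. Genes that were tested came mostly from the Z-disc, which anchors the thin filaments (10 of 21), and from calcium handling (9 of 11), some of which smooth muscle also uses.

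At 22 weeks on AL, 10 of the 33 differed between genotypes, 9 lower and 1 higher in Ercc1Δ/− mice, beside 6.07% of all tested genes lower and 5.42% higher. The median of the 33 log2 fold changes was -0.19, beside 0.03 over all tested genes. In the same comparison 10 of 12 smooth muscle genes were called lower, and their part in these values was not tested. Of the calcium handling genes 5 of 9 fell. The 9 lower genes had Spearman's rho with Myh6 from -0.30 (Ldb3) to 0.18 (Hrc) over the 28 samples. With Myom1 rho was 0.75 for Ldb3, 0.70 for Atp2a2, 0.67 for Xirp1, 0.66 for Jph2, 0.57 for Hrc and 0.52 for Actn2. For Cacna1c, Asph and Nrap it was 0.31, 0.30 and 0.27. Jph2, which holds the calcium store close to the cell membrane, fell from 2387 ± 212 to 1390.3 ± 254 normalized counts (log2 fold change -0.76 ± 0.12, edgeR adjusted p = 0.000268). Cacna1c, the pore of the L-type calcium channel, fell from 401 ± 54.2 to 226 ± 64.6 (-0.87 ± 0.15, adjusted p = 0.000638). Atp2a2, the calcium pump of the store, fell from 3338 ± 221 to 2423 ± 90.9 (-0.48 ± 0.11, adjusted p = 0.0043). Asph and Hrc also fell (adjusted p = 0.00463 and 0.0144).

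Of the 10 tested Z-disc and M-band genes 4 fell as well, Ldb3, Actn2, Xirp1 and Nrap. Xirp1 was called in 3 of 8 fits without 1 sample and Nrap in 2 of 8. Ldb3, which binds α-actinin, fell from 597 ± 79.2 to 343 ± 39.7 (-0.80 ± 0.13, adjusted p = 0.000329). Actn2, the α-actinin of striated muscle, fell from 127 ± 34.9 to 58.5 ± 23.4 (-1.19 ± 0.26, adjusted p = 0.00451). Corin, the protease that activates atrial natriuretic peptide, rose from 4.95 ± 3.39 to 24.8 ± 18.3 (2.30 ± 0.64, adjusted p = 0.0227), with overlapping groups, and was called in 4 of 8 fits without 1 sample.

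On DR at 22 weeks, 7 of the 33 differed between genotypes, 5 lower and 2 higher, beside 7.02% and 5.89% of all tested genes and 11 of 12 smooth muscle genes called lower, with a median of -0.18 against 0.00423 over all genes. Ldb3 fell from 751 ± 63.6 in WT to 346 ± 38.6 in Ercc1Δ/− mice (-1.12 ± 0.08, adjusted p = 3.39e-09), and Jph2 from 2367 ± 367 to 1301 ± 125 (-0.85 ± 0.11, adjusted p = 4.14e-06). Xirp1, Hspb7, a small heat shock protein of muscle, and Asph also fell (adjusted p = 0.000195, 0.00832 and 0.0284). Kcna5, a potassium channel of atria and vessels, rose from 11.2 ± 5.85 to 36.2 ± 14.1 (1.59 ± 0.37, adjusted p = 0.0048), and Fabp3, a carrier of fatty acids in heart and brown fat, rose from 97.1 ± 60 to 237 ± 127 (1.32 ± 0.39, adjusted p = 0.0395). Asph and Fabp3 were each called in 3 of 10 fits without 1 sample.

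At 6 weeks 5 of the 33 were lower in Ercc1Δ/− mice and 0 higher, beside 1.15% and 0.583% of all tested genes and 3 of 12 smooth muscle genes called lower, with a median of 0.03 against 0.02 over all genes. These were Xirp1 (-1.28 ± 0.19, adjusted p = 0.00259), Ldb3 (-0.70 ± 0.12, adjusted p = 0.00259), Jph2 (-0.52 ± 0.11, adjusted p = 0.0135), Actn2 (-1.09 ± 0.23, adjusted p = 0.0159) and Myoz2, a partner of calcineurin at the Z-disc (-0.56 ± 0.13, adjusted p = 0.033), the last called in 2 of 10 fits without 1 sample.

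With age and diet 0 to 2 of the 33 were called in each comparison, beside the shares of all genes given above. From 6 to 22 weeks Myoz2 fell in WT (-0.65 ± 0.14, adjusted p = 0.0476), a call that was lost in each of 9 fits without 1 sample, and Asph (-0.45 ± 0.13, adjusted p = 0.0453) and Cacna1c (-0.53 ± 0.15, adjusted p = 0.0466) fell in Ercc1Δ/− mice, called in 1 and 3 of 9 such fits. In WT on DR Ldb3 rose (0.36 ± 0.08, adjusted p = 0.0291, 2 of 9 fits) and Asph fell (-0.43 ± 0.09, adjusted p = 0.0127, 8 of 9 fits). In Ercc1Δ/− mice on DR edgeR called 0 of 33, with 5 at an unadjusted p under 0.05 and 1 called by DESeq2. Between the sexes it called 0 of 33, with 5 at an unadjusted p under 0.05 and 0 by DESeq2.

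None of the 33 tracked Myh6 as closely as Actc1 did. The highest Spearman's rho with Myh6 was 0.53, for Gja5, a connexin of atria and arterial endothelium, followed by 0.40 for Myom3, another myomesin, and 0.40 for Mb, myoglobin. With Myom1, Ryr2, the calcium release channel of the heart, had the highest rho of the 33, 0.76. Fabp3 had the lowest, -0.61, and Mb and Myom3 had -0.55 and -0.52. The 12 listed smooth muscle genes had rho with Myom1 from 0.43 (Smtn) to 0.78 (Acta2). With Tnnt2, Corin had 0.85 and the transcription factor genes Hand2, Gata4 and Tbx20 had 0.72, 0.66 and 0.66. Tbx18, the other tested transcription factor gene of the list, had -0.62 with Tnnt2. These are descriptions over samples that share groups.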

How the data were processed

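Total RNA was isolated from mouse aortic arches and used for mRNA sequencing of 29 samples, 1 per mouse. The authors deposited raw counts per gene, which are not normalized. Per the methods, UMI barcodes were handled with UMI-Tools 1.1.2, reads were aligned with STAR 2.7.10a to mm39 (Ensembl annotation), deduplicated and counted with htseq-count 2.0.2 over the gene body. Lines of unassigned reads (5) stayed out of totals and tests. Reads without a unique alignment were 3.66% to 7.06% of reads, so reads shared by near copies such as actins can be missing. No 2 samples of a group agreed within sampling noise (chi-square per degree of freedom 2.46 to 23.0 over 52 pairs). P-values measure the spread between mice.

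Tests were run on 12353 genes, those exceeding 10 counts in over 10 of the 28 samples, with edgeR 4.0.16 (quasi-likelihood F test, TMM, Benjamini-Hochberg) in R 4.3.3. Group and sex were terms. Age and genotype on AL were fitted over AL samples, diet and genotype on DR over samples of 22 weeks. DESeq2 1.42.0, RLE factors, no filter, sample 003, no sex term, all groups together, a cardiac level (mean log2 of Myh6, Myl4, Myl7, Tnnt2, Tnni3, Nppa and Sln, or, added after the data were seen, of Myh6, Myl7, Actc1 and Tnni3) as a term, and the omission of each sample were alternatives. The procedure was tested on simulated data. Symbols were found for 56017 of 56748 identifiers in GENCODE, and sequences came from RefSeq (GRCm38.p6) and were matched exactly to GRCm39. Named genes are the 10 members, called genes of the cardiac list (up to 10 per comparison), a few heart markers fixed with the list, and the 10 most alike tested genes. The members and lists were chosen with earlier results of these data known.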

Additional observations from a re-analysis of the deposited data

Results flagged for a closer look

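A sample far from the rest of its group was found for 11 of 55 combinations of member and group with any spread. About 1 in 20 would be flagged by chance if the values were normally distributed. These are skewed counts with many zeros, and a group with a single value above 0 is always flagged. Members that vary together are also not independent, so no excess over chance is read from the 11. In WT mice on DR, sample 021 stood apart in Myh6 (252.9 normalized counts, others 1.95 to 54.1), Actc1 (34.75, others 0 to 8.68), Tnni3 (22.77, others 3.04 to 8.71) and Myl4 (58.72, others 20.0 to 26.8). Among Ercc1Δ/− mice of 6 weeks, sample 008 stood apart in Myh6 (317.4, others 1.12 to 59.5) and Sln (6.515, others 0 to 0.975). Sample 012 stood apart in Tnni3 among WT mice of 22 weeks on AL (36.85, others 12.0 to 15.4), and sample 029 in Myl4 among Ercc1Δ/− mice on DR (68.57, others 30.6 to 40.9). The others rest on 1 to 4 raw counts: Nppa in sample 015 (3.24), Nppa in sample 025 (0.3796) and Sln in sample 004 (3.606), each with 0 in the rest of its group.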

How the results depend on the processing

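Under settings other than the omission of a sample, 425 values of member fold changes moved by less than the spread between samples, and none of the called ones changed sign. The 16 that moved more were all from the fits with a cardiac level as a term. The spread between samples is wide for Myh6, Actc1 and Myl7, so this yardstick is loose for them. Between genotypes at 22 weeks on AL, Myh6 went from -1.96 to -3.23 with DESeq2. Values that were not called could change sign, as Myl7 did there, from -0.39 to 0.01 with no sex term. No paired analysis was possible because each mouse gave 1 sample and no label links mice of different groups. The counts of the 33 other cardiac genes called depended on the setting. Without the filter on low counts, where more of the 74 were tested, they were 12 between genotypes at 6 weeks, 21 at 22 weeks on AL and 18 on DR, 6 for age in WT and 7 in Ercc1Δ/− mice, 9 for DR in WT and 3 in Ercc1Δ/− mice, and 6 for sex. DESeq2 called 2 for age in WT, 11 between genotypes on DR, and 4 and 1 for DR in WT and Ercc1Δ/− mice. With all 6 groups in the fit there were 0 for age and 0 for DR in WT, with RLE factors 1 for age in Ercc1Δ/− mice, with sample 003 added 0 there, and with no sex term 1 for DR in WT. With the cardiac level as a term there were 3 between genotypes at 6 weeks, 0 for age in WT and 1 in Ercc1Δ/− mice. With the level of Myh6, Myl7, Actc1 and Tnni3, chosen after the data were seen, the counts were 3, 0 and 1, with 6 between genotypes at 22 weeks on AL and 1 for DR in WT. Without 1 sample each, the counts ran from 3 to 6 between genotypes at 6 weeks, 7 to 10 at 22 weeks on AL and 5 to 8 on DR, 0 to 0 for age in WT and 0 to 3 in Ercc1Δ/− mice, 1 to 4 for DR in WT and 0 to 1 in Ercc1Δ/− mice. The cause of these differences was not tested. The shallowest samples held 921167 and 955589 counts, which limits what can be said of Nppa, Sln and Ttn.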

Other observations

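Sample 003, the WT mouse of 22 weeks on AL that was left out, held 4 raw counts of Myh6, 4 of Tnnt2, 235 of Myom1, 3 of Tnni3, 3 of Ttn, 2 of Myl4 and 1 of Myl7, and 0 of Actc1, Sln and Nppa, out of 400410. On the common scale Myom1 was at 2317 normalized counts, under the 2634 to 3281 of its group, and Tnnt2 at 39.4, under the 152 to 249 of its group.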
